A study of Mus musculus with 2 samples.

Results

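The transcripts of 9 intermediate filament genes, Nefl, Nefm, Nefh, Ina, Prph, Vim, Gfap, Nes and Synm, were examined in RNA from dorsal root ganglion (DRG) neurons of alum-injected and alum + KLH-immunized mice. The genes were taken by symbol. They account for 14 of the 35034 RefSeq transcript rows and 9 of the 24411 genes in the deposited tables. Every member had at least 1 row, and the values of all rows of a gene were summed.

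DRG neurons are the sensory neurons whose cell bodies lie beside the spinal cord. The preparations were enriched for them, and the study's own estimate of cell composition from the RNA also found non-neuronal cells. Both groups were male C57BL/6J mice of 6 to 8 weeks of age with no genetic change. Both were given intraperitoneal alum, an aluminium salt adjuvant, on days 0 and 14. In the immunized group the alum carried 100 µg of KLH (keyhole limpet hemocyanin, a foreign mollusc protein). DRGs were taken 14 days after the second injection. The control library carries a label that calls it both naïve and given alum alone, and the study's methods describe it as alum-injected. The cells of 10 mice per group were pooled after digestion of thoracic and lumbar ganglia and depletion of B lymphocytes with beads, and 1 library was made from each pool. No difference between the pools therefore has a replicate check, and no SD or p-value can be attached to it.

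Intermediate filaments are ropes of coiled-coil proteins that give cells mechanical strength. In axons, the light, medium and heavy neurofilament subunits (Nefl, Nefm, Nefh) assemble together, with alpha-internexin (Ina) or peripherin (Prph) as further partners, and their amount sets axon calibre. Peripherin is typical of peripheral neurons, vimentin (Vim) of glia and connective tissue, glial fibrillary acidic protein (Gfap) of astrocytes and some peripheral glia, and nestin (Nes) of progenitor cells. Synemin (Synm) is a large protein that joins filaments built by vimentin or desmin.

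What the members share in sequence is shown first, because it orders the family and bears on how reads are assigned to them. All members carry a central rod domain, and the end of the rod is the most conserved stretch of the family. A search for the coding sequence of this stretch, by in-frame translation, found it in 7 of the 9 members, and the 30 coding bases of each are given here from the GENCODE M21 transcripts (GRCm38). Capitals mark the 18 bases that are the same in all 7 genes.
Nefl: gCtTACAGaAAacTctTgGAaGGcGAaGAg
Nefm: gCgTACAGgAAacTccTaGAgGGgGAaGAg
Nefh: gCtTACAGaAAgcTccTgGAaGGcGAaGAg
Ina: gCtTACAGgAAgcTccTgGAaGGtGAaGAg
Prph: aCcTACAGgAAgcTacTgGAaGGgGAgGAg
Vim: aCcTACAGgAAgcTgcTgGAaGGcGAgGAg
Gfap: aCcTACAGgAAatTgcTgGAgGGcGAaGAa

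Of the 12 bases that differ in at least 1 gene, 9 are the last base of a codon. The search itself fixed most of the amino acids. It required tyrosine and, after 1 free residue, lysine-leucine-leucine-glutamate-glycine-glutamate. Most of the shared bases, and the weight of the differences on last codon bases, therefore follow from the search and are no measure of conservation. Prph had 28 of 30 bases in common with Vim, whereas Nefl had 23, Nefm 22, and Nefh, Ina and Gfap 25 each. The stretch is also cut differently by the genes' introns. In Nefl (chr14:68086091-68086508, plus strand), Nefm (chr14:68121363-68122828, minus strand), Nefh (chr11:4941394-4943858, minus strand) and Ina (chr19:47021950-47023356, plus strand), the first 8 bases end an exon and the other 22 begin the next. In Prph (chr15:99057444-99057473, plus strand), Vim (chr2:13580204-13580233, plus strand) and Gfap (chr11:102893040-102893069, minus strand), all 30 bases lie within exon 6. These spans of the first 4 genes include the intron. By this stretch, Prph has the gene structure of Vim and Gfap although it is a neuronal gene. Nes and Synm did not match the search, which says only that this stretch was not found in them.

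The heavy subunit is set apart by its tail. Nefh is known for a long series of lysine-serine-proline repeats, which kinases phosphorylate in the axon. The in-frame coding motif AAGTCNCCN, which spells these 3 residues with the AAG codon for lysine, was counted on the coding strand only. It occurred 34 times in Nefh (NM_010904, 3270 coding bases), 4 times in Nes, 2 times in Nefm and 0 times in the other 6 members. Of 22338 coding genes searched, 4.45% held at least 1 match, and no other gene held as many as Nefh. A stretch of 180 bases with 10 matches in exon 4 of Nefh (chr11:4940884-4941063, minus strand), is given because it shows the repeat unit, with the matches in capitals.
Nefh: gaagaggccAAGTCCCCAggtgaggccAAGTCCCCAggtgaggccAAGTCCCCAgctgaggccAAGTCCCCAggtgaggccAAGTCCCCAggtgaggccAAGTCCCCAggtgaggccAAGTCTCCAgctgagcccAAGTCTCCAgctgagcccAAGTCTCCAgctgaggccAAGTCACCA

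This repetition lies within 1 gene. None of the 31-base words of Nefl, Nefh, Nes, Gfap or Synm occurred in a transcript of another listed gene, in either orientation, and in Nefm, Prph and Vim at most 0.637% did. Ina differed, with 13.3% of its 31-base words also in Nt5c2, a gene on the opposite strand that overlaps its 5′ end. Nt5c2 had levels of 48.4 TPM (alum pool) and 45.6 TPM (alum + KLH pool). Whether strand was used in the quantification is not given in the sources used here, so the Ina value is less certain than the others.

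All 9 members were above 3 TPM, the study's threshold for detectable expression, in both pools. Across all genes, 46.9% passed this threshold in the alum pool, 46.3% passed it with KLH added and 45.5% passed it in both. TPM is a relative abundance in which reads are divided by transcript length and by the library's total. The levels of different genes can thus be set beside each other with respect to length. No correction for base composition is described in the study, so ratios between genes of unlike GC content are less certain. Summed over the members, the level was 9687 TPM with alum alone and 9292 TPM with KLH added, or 0.969% and 0.929% of the library. The number of reads behind a value is unknown from the files.

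The neurofilament triplet dominated. Nefl, at 5259 and 5048 TPM (alum-injected and alum + KLH pool, in this order throughout), ranked 4 of all genes in both pools. Nefm was at 2263 and 2182 TPM and ranked 27 and 29. Nefh was at 1021 and 973 TPM and ranked 102 and 115. Together these 3 genes held 88.2% (alum pool) and 88.3% (alum + KLH pool) of the members' summed TPM.

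Nefl and Nefm are neighbours on chromosome 14. The Nefl transcript (NM_010910, 4 exons, chr14:68083863-68089095, plus strand) and the Nefm transcript (NM_008691, 3 exons, chr14:68119283-68124846, minus strand) are transcribed towards each other and lie 30187 bases apart. Nefh (NM_010904, 4 exons, chr11:4938754-4948064, minus strand) is on another chromosome. The GENCODE span of the Nefm gene as a whole (68082590 to 68124846) is longer than its RefSeq row and covers Nefl on the opposite strand. The subunits kept nearly the same proportions in the 2 pools. Per transcript length, Nefl was 2.32 and 2.31 times as abundant as Nefm and 5.15 and 5.19 times as abundant as Nefh, and Nefm was 2.22 and 2.24 times as abundant as Nefh. Against Tubb3, the neuronal beta-tubulin, Nefl stood at a ratio of 7.68 and 7.89.

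The 2 other neuronal filament proteins were far lower than the triplet. Prph was at 244 and 202 TPM, so that Nefl exceeded it 21.6-fold and 25.02-fold, and its ratio to Tubb3 was 0.356 and 0.315. Ina (NM_146100, 3 exons, chr19:47014698-47025327, plus strand) was at 21.5 and 17.0 TPM, and Nefl exceeded it 245-fold and 297-fold. Prph stood 11.3 times and 11.9 times above Ina.

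Among the remaining members, Vim (NM_011701, 9 exons, chr2:13573952-13582826, plus strand) was the most abundant at 570 and 557 TPM. It was followed by Synm at 281 and 286 TPM. Nes (NM_016701, 4 exons, chr3:87971093-87980451, plus strand) was at 22.4 and 22.5 TPM. Gfap was the lowest member at 5.28 and 4.84 TPM, and Vim exceeded it 108-fold and 115-fold. Gfap passed 3 TPM only as the sum of its 2 rows, neither of which did so alone.

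The order of the members was the same in both pools, as the plot of levels shows. It ran Nefl, Nefm, Nefh, Vim, Synm, Prph, Nes, Ina and Gfap. The closest neighbours were Nes and Ina in the alum pool, at 22.4 and 21.5 TPM, and Synm and Prph, at 281 and 244 TPM. These orderings cannot be judged against a spread, as each pool was sequenced as 1 library.

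**Figure D1:**
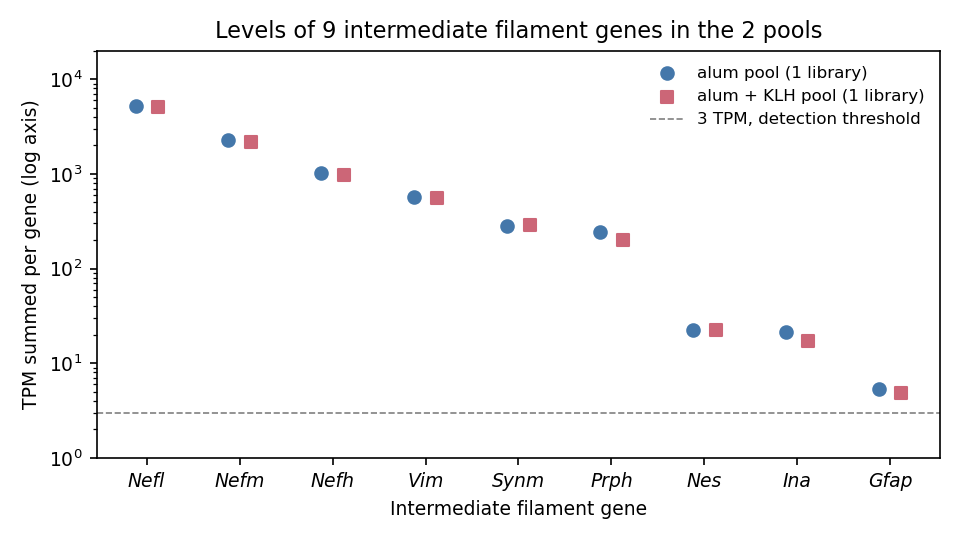
TPM summed per gene (y axis, log scale) of the 9 intermediate filament genes (x axis) in the alum pool (circles) and the alum + KLH pool (squares), 1 library each, with the detection threshold of 3 TPM dashed. The levels run from 5259 TPM for Nefl to 4.84 TPM for Gfap, and all points lie above the threshold.

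By the distance between log2(TPM + 1) values over the 2 pools, the 5 genes most like Nefl in level were Ywhah, Skp1a, Cd24a, Hspa8 and Calca. Ywhah, a 14-3-3 protein gene, was nearest at 4730 and 4767 TPM, and Calca, the precursor of calcitonin gene-related peptide, was at 6177 and 5729 TPM. The 5 genes most like Vim were Chp1, Btf3, Slc25a5, Ank2 and Vapa, of which Chp1 was at 574 and 554 TPM. With 2 values per gene this likeness describes the level alone.

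Prph, Synm and Gfap have several transcript rows. For Prph, nearly all of the signal sat on NM_001163589 (9 exons, chr15:99055181-99058973, plus strand), at 237 and 197 TPM, or 97.4% and 97.6% of the gene. The NM_001163588 row was at 6.26 and 4.74 TPM. NM_013639 was given 6.59e-09 TPM with alum alone and was listed at 0 with KLH added. Both minor rows have 8 exons because they keep a segment of 96 bases (chr15:99056937-99057032, plus strand) that NM_001163589 splices out. The segment is given because it separates the forms, and capitals mark its first 2 and last 2 bases, the usual ends of an intron.
Prph: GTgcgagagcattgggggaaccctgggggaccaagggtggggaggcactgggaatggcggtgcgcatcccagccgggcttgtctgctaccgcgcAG

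The segment is a multiple of 3 in length and lies in the coding region. The 2 minor rows differ at the last splice junction, where NM_013639 and NM_001163589 have 3 further bases (capitals, chr15:99058602-99058604, plus strand) that NM_001163588 lacks.
NM_013639: cgggatggggagAAGgtggtgacagag
NM_001163588: cgggatggggaggtggtgacagag

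No 31-base word of NM_013639 was particular to that row, so its value near 0 was not read from sequence of its own. NM_001163588 and NM_001163589 had 1.64% and 1.74% of such words to themselves.

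Synm (chromosome 7, 67730160 to 67759742, minus strand) has 3 rows that differ mainly in how much of the 3′ part is spliced out. NM_183312, the shortest with 1113 coding bases, was the most abundant at 150 and 167 TPM, or 53.2% and 58.6% of the gene. NM_207663, with 3777 coding bases, was at 104 and 94.6 TPM (37.1% and 33.1%). NM_201639, with 4683 coding bases, was at 27.2 and 23.6 TPM (9.65% and 8.26%). The short form was thus higher and both longer forms lower in the alum + KLH pool, while the gene totals were 281 and 286 TPM. Only 0.61% of the 31-base words of NM_183312 and 1.11% of those of NM_207663 were particular to the row, against 12.1% for NM_201639. The division of reads between the first 2 rows therefore rests on little sequence.

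Gfap (chromosome 11, minus strand) was split almost evenly. NM_001131020 (8 exons, 102890166 to 102897200) was at 2.70 and 2.38 TPM and NM_010277 (9 exons, 102887336 to 102897131) at 2.58 and 2.46 TPM. The rows end in different last exons, and 48.9% and 56.2% of their 31-base words were particular to them. The order of the 2 rows differed between the pools.

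**Figure D2:**
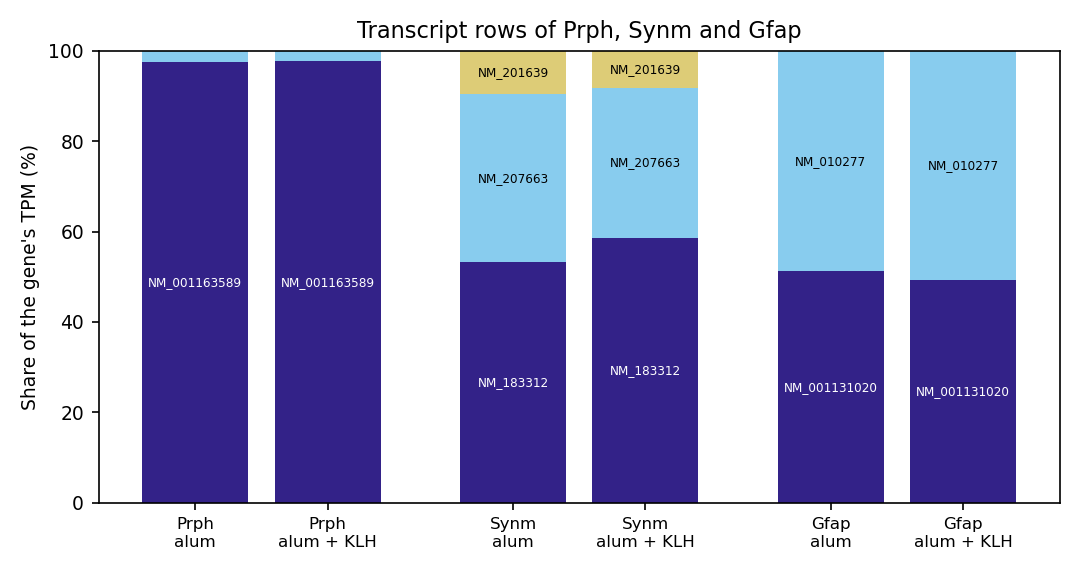
Share of each gene's TPM (y axis, percent) held by its transcript rows for Prph, Synm and Gfap (x axis) in the alum and the alum + KLH pool, 1 library per bar. NM_001163589 holds 97.4% and 97.6% of Prph, and NM_183312 holds 53.2% and 58.6% of Synm.

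For each gene the log2 ratio of TPM + 1 was taken, alum + KLH over alum, which asks whether immunization against an antigen went with a difference in filament transcripts beyond alum alone. A gene was counted as apart at 1.5-fold or more. None of the 9 members passed this limit (0 of 9), and the share among all 11648 genes above 3 TPM in either pool was 2.56%. Among the 2155 genes with a mean above 100 TPM, the class of 6 of the members, the share was 0.51%.

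The triplet differed little. The log2 ratio was -0.06 for Nefl, -0.05 for Nefm and -0.07 for Nefh, which are differences in TPM of -4.02%, -3.58% and -4.63%. Vim had a log2 ratio of -0.03, Synm 0.02 and Nes 0.0043. Gfap was at -0.11. The largest ratios were those of the 2 other neuronal members, Ina with -0.32 and Prph with -0.27, which correspond to differences in TPM of -20.9% and -17.2%. Both lay outside the 25th to 75th percentile of all genes above 3 TPM (-0.12 to 0.06) and within the 5th to 95th percentile (-0.33 to 0.21). Among genes with a mean above 100 TPM, the class of Prph, the 5th percentile was -0.19.

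**Figure D3:**
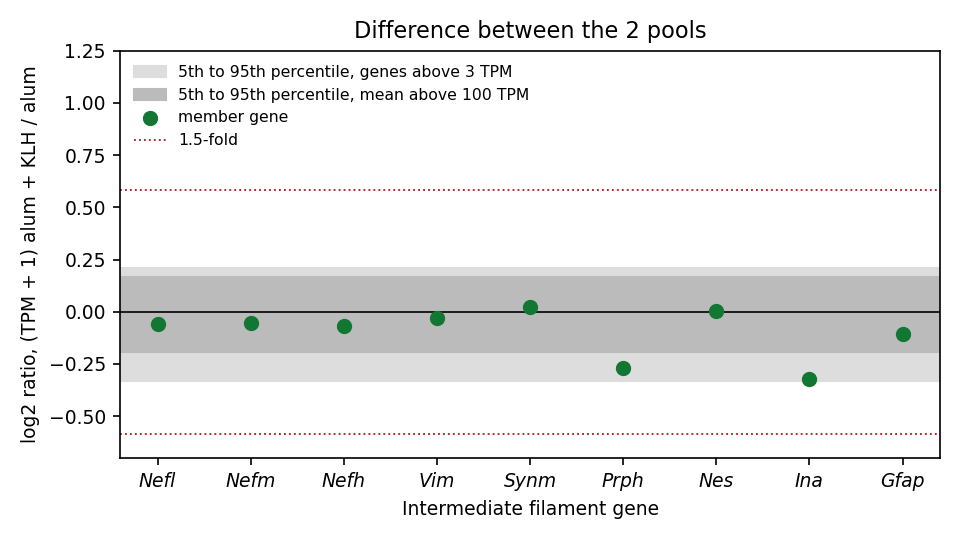
log2 ratio of TPM + 1, alum + KLH pool over alum pool (y axis), for the 9 genes (x axis), with the 5th to 95th percentile of genes above 3 TPM (light band) and of genes with a mean above 100 TPM (dark band) and the 1.5-fold limits dotted. All 9 genes lie inside the 1.5-fold limits, and Ina (-0.32) and Prph (-0.27) are the lowest.

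The median log2 ratio was -0.06 over the 9 members, -0.02 over the genes above 3 TPM and 0.01 over those above 100 TPM. Of the members, 7 were below 0, a count that became 9 relative to Hprt, where Nes and Synm also went below 0, and 4 after the correction for GC content described next. The share below 0 was 56.4% among genes above 3 TPM and 43.7% among those above 100 TPM.

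The difference between the libraries moved with base composition. Genes above 3 TPM were divided by GC content into 10 classes of equal size. Over the 11597 such genes with a known sequence, the log2 ratio had a Spearman correlation of -0.46 and a Pearson correlation of -0.19 with the GC content of the transcript, across genes that share the same 2 libraries. The median log2 ratio was 0.07 in the lowest class (21.7% to 41.2% GC) and -0.19 in the highest class (56.6% to 70.4% GC). The members lie towards the GC-rich end, from Nefl at 48.8% to Nefh at 58.4% and Prph at 60.4%.

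The members were then set against genes of like GC content. Prph and Nefh both belong to the highest class, with its median of -0.19, and after subtracting it Prph was at -0.08 and Nefh at 0.12. Ina and Nes, both at 55.5% GC, belong to the next class with a median of -0.13, and came to -0.19 and 0.13. Nefl was then at -0.04, Nefm at 0.01, Vim at 0.03, Synm at 0.04 and Gfap at -0.06. Ina therefore remained the lowest member and Prph the next, and the values of Nefm, Nefh and Vim changed sign. In the 39 genes of the highest class with a mean above 100 TPM, the median was -0.15. The part of base composition in the differences of single genes was not tested.

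**Figure D4:**
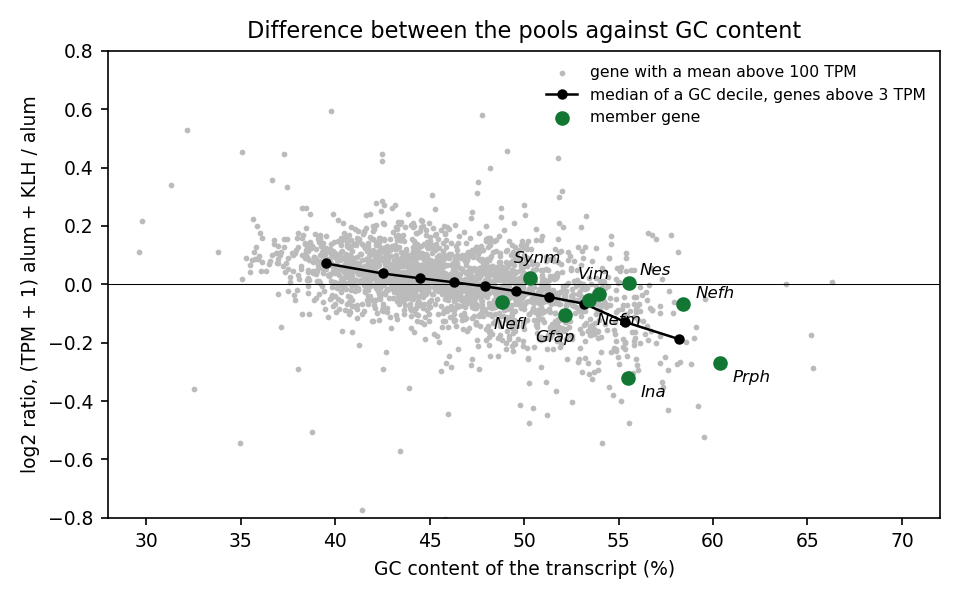
log2 ratio of TPM + 1, alum + KLH pool over alum pool (y axis), against GC content of the transcript in percent (x axis), with genes above a mean of 100 TPM in grey (8 of 2152 lie outside the axes), medians of GC classes of the genes above 3 TPM in black and the 9 members in green. The medians go from 0.07 to -0.19, Ina and Prph lie below the line, and Nefh and Nes lie above it.

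Filament RNA in a mixed preparation can come from several cell types, and fewer cells of a type cannot be told apart from less RNA per cell. All 10 pan-neuronal markers were above 3 TPM in both pools, led by Snap25, a synaptic fusion protein, at 4057 and 4279 TPM and Stmn2, a tubulin-binding axonal protein, at 2496 and 2446 TPM. Their median log2 ratio was -0.04, and 6 of the 10 were below 0, beside 56.4% of all genes above 3 TPM in either pool. The ratios ran from -0.44 for Rbfox3, which encodes the study's neuron marker NeuN, to 0.19 for Elavl4. The large-fibre markers bear on the triplet, since large myelinated neurons carry the most neurofilament. Of these 8 genes, 6 were above 3 TPM in both pools, and all 8 summed to 783 and 985 TPM. Spp1, which encodes osteopontin, was at 196 and 352 TPM, a log2 ratio of 0.84, and Calb1, the calcium buffer calbindin, at 198 and 218 TPM. Of the other genes that passed, Pvalb, the calcium buffer parvalbumin, had a log2 ratio of 0.50, Ntrk2 of 0.01, Ntrk3 of -0.05 and Ldhb of -0.06. The median over the 6 was 0.08. The part of these neurons in the triplet's values was not tested. The 8 nociceptor markers, among them Calca and Tac1, the substance P precursor at 1090 and 1097 TPM, summed to 8378 and 7831 TPM, with a median log2 ratio of -0.12. Peripherin is typical of such small neurons, and the part of this list in the Prph value was not tested.

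Non-neuronal markers stand beside Vim, Gfap, Nes and Synm. All 8 satellite glia genes were above 3 TPM in both pools and summed to 1646 and 1529 TPM, with Fabp7, a fatty acid binding protein, at 953 and 888 TPM and Glul, glutamine synthetase, at 302 and 293 TPM. Of 7 non-myelinating Schwann cell genes, 6 passed in both pools, and their sum was 1652 and 1651 TPM, mostly from Scn7a at 694 TPM in each pool and the calcium-binding protein gene S100b at 683 and 711 TPM. The 8 myelinating Schwann cell genes summed to 1205 and 1149 TPM, of which Pmp22, a myelin protein that other cells also make, gave 1062 and 1021 TPM and Mbp 59.4 and 53.9 TPM.

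Connective tissue and vessels were lower. The 8 fibroblast genes summed to 92.2 and 91.6 TPM, with the proteoglycans Dcn at 63.8 and 62.6 TPM and Lum at 11.2 and 13.2 TPM. The 9 endothelial and mural genes summed to 192 and 177 TPM, nearly all from Rgs5 at 172 and 162 TPM, while Emcn, an endothelial sialomucin, was at 5.17 and 4.46 TPM. The 9 macrophage genes summed to 10.1 and 9.67 TPM, with Lyz2 the highest at 3.90 and 3.86 TPM and Cx3cr1 next at 2.08 and 1.66 TPM. The 7 lymphocyte genes summed to 4.73 and 4.13 TPM, Cd3d being the highest at 2.97 and 3.13 TPM and Ptprc next at 0.438 and 0.411 TPM. The part of these cells in the levels of Vim, Gfap, Nes and Synm was not tested.

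Injury of the axon is known to change filament expression in sensory neurons, and dissociation cuts the axons. Of 10 genes known to be induced by axotomy, 5 were above 3 TPM in both pools. The other 5 were not: Sprr1a was at 2.50 and 0.401 TPM, Npy at 1.63 and 0.646 TPM, and Ecel1, Vip and Csrp3 below 1 TPM in both pools. Atf3, a transcription factor, was at 238 and 219 TPM and Gadd45a, a stress response gene, at 160 and 153 TPM. The list summed to 583 and 520 TPM. The median log2 ratio of the 5 genes above 3 TPM was -0.12, and 4 of them were below 0, beside 56.4% of all genes above 3 TPM in either pool. Gal was at 45.6 and 30.7 TPM, a log2 ratio of -0.55, while Jun had a ratio of -0.30 and Sox11 of 0.22. None of the list's genes above 3 TPM was 1.5-fold apart. The part of axon injury in the filament values was not tested.

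Desmin, the muscle relative of vimentin, and most keratins were near 0. Of 16 other cytoplasmic intermediate filament genes, 4 were above 3 TPM in both pools and 5, all of them keratin genes, were listed at 0 in both. Krt222, a keratin-like gene, was an exception at 105 and 114 TPM, between Prph and Nes in level. Iffo1, an orphan member of the family, was next at 8.09 and 7.36 TPM, and Des was at 0.062 and 0.0886 TPM. The nuclear filaments belong to the same superfamily. Of 8 lamina genes, 7 passed 3 TPM in both pools, with Zmpste24, the protease that matures lamin A, at 103 TPM in each pool and Lmna, which encodes lamin A and C, at 48.5 and 39.6 TPM. Lmna had a log2 ratio of -0.29 at 59.3% GC, and -0.10 after subtracting the median of its GC class.

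Further lists held genes whose proteins bind, modify, move or remove filaments. Of 7 cytolinkers, which tie filaments to other structures, 3 were above 3 TPM in both pools, with Dst (dystonin) at 321 and 306 TPM and Macf1 at 58.5 and 55.6 TPM. All 18 kinase and phosphatase genes passed, led by Ppp2ca, the catalytic subunit of protein phosphatase 2A, at 811 and 796 TPM. All 9 transport motor genes passed, led by the kinesin heavy chains Kif5c at 795 and 798 TPM and Kif5b at 675 and 681 TPM. The 4 RNA-binding proteins known to bind neurofilament mRNA passed as well, with Elavl4 the highest at 530 and 607 TPM. In none of these 4 lists was a gene above 3 TPM 1.5-fold apart, and their median log2 ratios lay between -0.07 for the cytolinkers and 0.03 for the RNA-binding proteins.

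The 12 turnover and chaperone genes were all above 3 TPM in both pools and had a median log2 ratio of -0.15, the lowest of the filament lists, or 0.0016 after subtracting the GC medians. Hspa8, the constitutive heat shock protein 70, was the highest at 4511 and 4459 TPM, and Trim2, a ubiquitin ligase that targets the light subunit, was at 277 and 289 TPM. Hspb1, a small heat shock protein with a known part in neurofilament assembly and in inherited neuropathy, was the only gene of the 57 in these 7 lists above 3 TPM that was at least 1.5-fold apart, and the share over all genes above 3 TPM in either pool was 2.56%. Its level was 40.5 TPM with alum alone and 22.3 TPM with KLH added, a log2 ratio of -0.83. Its transcript has 60.7% GC, and subtracting the median of its GC class left -0.64. Of the 12 genes, 11 were below 0, and the next lowest were Cryab at -0.50 and Stub1 at -0.44. After the subtraction these 2 were at -0.43 and -0.25. The log2 ratio of Nefl was -0.06 in the same libraries.

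**Figure D5:**
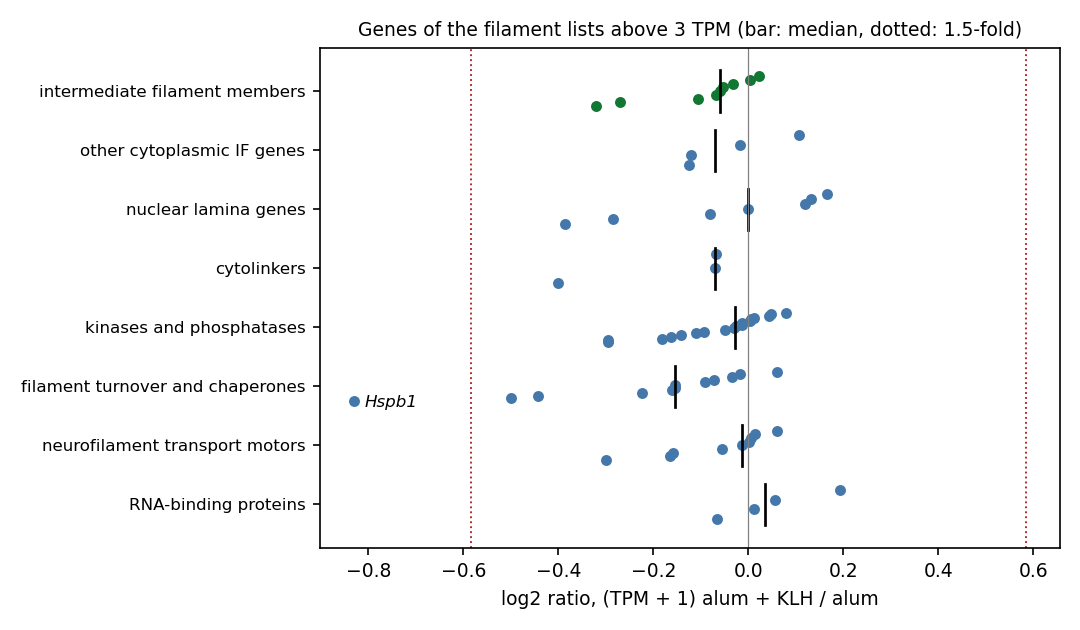
log2 ratio of TPM + 1, alum + KLH pool over alum pool (x axis), of every gene above 3 TPM in either pool in the member list (green) and 7 lists of filament-related genes (blue, rows on the y axis), with the median of each list as a bar and the 1.5-fold limits dotted. Hspb1, at -0.83, is the only gene beyond the limits.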

How the data were processed

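Libraries of 2 pools, each from the DRG neurons of 10 mice, were compared. The authors trimmed reads with cutadapt, aligned them to mm10 with its existing transcript annotation and without a search for new transcripts and quantified them with kallisto (version not given in the sources used here). Deposited values are in TPM for each RefSeq transcript. The study's methods give a minimum number of reads per library, but TPM values keep no read counts, so no counting interval or floor was set.

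TPM was summed per gene (14 member rows). Ratios used a pseudocount of 1 TPM, which understates the change of low genes. Transcript structure, GC content and sequences came from GENCODE M21 (GRCm38, the assembly of mm10), to which 33283 of 35034 rows matched by RefSeq identifier. GC content was taken from a gene's most abundant matched row, or by symbol where none matched (99.6% of genes above 3 TPM), and its correction subtracted the median log2 ratio of 10 equal classes. No test was made, since each group is 1 library. Members, gene lists and alternatives were chosen with earlier results of these data known, and the GC correction was chosen after seeing the data. Named genes were the members, the 2 highest genes of each list and every list gene above 3 TPM at least 1.5-fold apart. The 5 genes nearest to Nefl and to Vim were also named. Nt5c2, Hprt, Tubb3, Des, Mapk10, Pvalb, Ntrk2, Ntrk3, Ldhb, Rbfox3, Sox10, Gal, Jun, Sox11, Cryab and Stub1 were added after their values were seen. Some genes that the rule takes are not reported here. Calculations used pandas 2.3.3, scipy 1.17.1 and numpy 2.4.6 under Python 3.11.15, and were tested on simulated data.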

Additional observations from a re-analysis of the deposited data

How the results depend on the processing

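No paired analysis was possible because each group holds 1 pooled library. The alternatives were pseudocounts of 0.1 and 0.5 TPM, the highest transcript per gene, coding transcripts only, scaling by the median ratio of the pools (0.987), values relative to Hprt, thresholds of 0, 1 and 10 TPM, omission of 1470 small RNA rows and, chosen after seeing the data, the GC correction. As a yardstick for a moved member ratio, the SD of the log2 ratio over the 500 genes closest in level was used. For the members' share of the library and the subunit ratios, the SD over genes with a mean above 100 TPM (0.16) was used. Of 120 recomputed values, 117 stayed within their yardstick or within 1.5 times the main count. Some of these could not move. All member rows are coding transcripts, and a member with 1 row keeps it as its highest transcript. The yardstick of the member ratios ran from 0.16 for Nefh to 0.23 for Gfap. It was wider than the ratios of all members but Ina and Prph, so a change of sign could stay within it. The GC correction moved Nefh from -0.07 to 0.12 and Prph from -0.27 to -0.083, and put Nefm at 0.01 and Vim at 0.03, while relative to Hprt Nes was at -0.08 and Synm at -0.06. With the highest transcript per gene, the list genes at least 1.5-fold apart went from 1 to 3, as Iffo1 (log2 ratio 0.79) and Mapk10 (-0.59) joined Hspb1; their gene totals were 8.09 and 7.36 TPM and 164 and 162 TPM. The count of members at least 1.5-fold apart was 0 under each alternative run for it. Members above 3 TPM numbered 8 in each pool with the highest transcript per gene or a threshold of 10 TPM, Gfap being the one lost. The reads behind a single value cannot be read from TPM, so the precision of the low values, such as those of Gfap, is not known.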
